A study of Mus musculus with 6 samples.

Results

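The Cyp1 and Cyp3a cytochrome P450 genes examined here are 10 genes of the mouse liver transcriptome, namely Cyp1a1, Cyp1a2, Cyp1b1, Cyp3a11, Cyp3a13, Cyp3a16, Cyp3a25, Cyp3a41a, Cyp3a44 and Cyp3a59. They were taken by gene symbol, with earlier results of these data known, from the 54446 genes listed in the deposited comparison of the genotypes, and their raw counts were matched by Ensembl identifier. RNA-seq was carried out on liver of 3 WT mice and 3 Fmo5-/- mice, which carry in every tissue the knockout of Fmo5, a flavin-containing monooxygenase gene. Both are of C57BL/6 background by the labels, and of C57BL/6J by the methods of the study. All mice were males, 32 weeks of age, fed chow, and each gave 1 library. WT and Fmo5-/- mice were housed in adjacent cages, and the labels state no litter, batch or pairing. For a gene near Fmo5 on chromosome 3, DNA linked to the knockout allele cannot be told apart from the knockout itself. Which of the genes named outside the Cyp1 and Cyp3a genes lie near it was not examined. The 2 groups differ in the allele in all cells of the body, so a difference in liver cannot be told apart from one that follows a change in another organ, and in whole liver fewer cells of a type cannot be told apart from less RNA per cell.

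Cytochromes P450 are haem proteins, most of them of the endoplasmic reticulum, that insert an atom of oxygen into their substrates with electrons passed on by P450 oxidoreductase. The enzymes of family CYP1 oxidise planar aromatic compounds, and their genes are classical targets of the aryl hydrocarbon receptor (AHR), which pairs with ARNT on DNA. CYP1A2 is made in liver without an inducer, mainly in perivenous hepatocytes, whereas CYP1A1 is kept low until an AHR ligand is present. The CYP3A enzymes oxidise drugs, bile acids and steroids, and Cyp3a11, the chief Cyp3a gene of adult mouse liver, is a target of the pregnane X receptor (PXR, gene Nr1i2) and of the constitutive androstane receptor (CAR, gene Nr1i3), which bind DNA together with RXRA. Cyp3a16, Cyp3a41a and Cyp3a44 are known as genes of fetal or female liver.

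Because the Cyp3a genes are copies of one another, what a single read can resolve depends on their sequences. In mm10 with the GENCODE vM21 annotation, 6 of the 7 Cyp3a members lie in one cluster on chromosome 5, which together with Cyp3a57 and Cyp3a41b spans 768.0 kb. Along this cluster Cyp3a16 lies at chr5:145436309-145469723, Cyp3a41a at chr5:145694049-145720136, Cyp3a44 at chr5:145773983-145805874, Cyp3a11 at chr5:145854426-145879964 and Cyp3a25 at chr5:145977194-146009618, all on the minus strand. Cyp3a59 lies at chr5:146079257-146113287 on the plus strand. Cyp3a13 stands apart at chr5:137892932-137921619, on the minus strand. The coding transcript of each of the 7 genes has 13 exons. Shown here are 75 bases of exon 12, the length of a sequencing read, around the codons of the cysteine that holds the haem iron, for the abundant members and for the genes with close copies. Capitals mark the bases that differ from Cyp3a11, and all are written 5′ to 3′ along the gene's own strand.
Cyp3a11 (chr5:145858782-145858856, minus strand): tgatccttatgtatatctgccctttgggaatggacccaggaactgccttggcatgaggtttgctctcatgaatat
Cyp3a44 (chr5:145777982-145778056, minus strand): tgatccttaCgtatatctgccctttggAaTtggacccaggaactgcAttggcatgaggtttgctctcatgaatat
Cyp3a41a (chr5:145698198-145698272, minus strand): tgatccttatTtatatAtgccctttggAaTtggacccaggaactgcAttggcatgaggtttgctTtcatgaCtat
Cyp3a25 (chr5:145981445-145981519, minus strand): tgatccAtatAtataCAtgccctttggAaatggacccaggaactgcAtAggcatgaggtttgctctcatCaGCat
Cyp3a59 (chr5:146109070-146109144, plus strand): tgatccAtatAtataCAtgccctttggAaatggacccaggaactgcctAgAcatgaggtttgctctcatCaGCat
Cyp3a13 (chr5:137895244-137895318, minus strand): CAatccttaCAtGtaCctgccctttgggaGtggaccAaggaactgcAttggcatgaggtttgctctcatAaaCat

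In this window Cyp3a16, not shown, differs from Cyp3a11 at 1 base, Cyp3a44 at 4, Cyp3a41a at 7, Cyp3a25 and Cyp3a59 at 10 each and Cyp3a13 at 11, while Cyp3a41b has the same window as Cyp3a41a. Over the whole coding sequence, Cyp3a41a and Cyp3a41b differed at 2 of 1512 bases, and Cyp3a25 and Cyp3a59 were 97.5% identical. Cyp3a11 was 95.2% identical to Cyp3a41a, 94.9% to Cyp3a44 and 92.8% to Cyp3a16, but only 76.1% to Cyp3a25 and 76.5% to Cyp3a13. The members thus form a close group around Cyp3a11, a second pair and the distant Cyp3a13.

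Reads that fitted more than 1 place were not counted on any gene. Of the 1986 windows of 75 bases along the Cyp3a41a transcript, 95.3% occurred letter for letter in the transcripts of other genes, mostly of Cyp3a41b, and 94 were its own. The share was 11.2% for Cyp3a25, 11.02% for Cyp3a44 and 10.8% for Cyp3a59. It was 3.66% for Cyp3a11, 3.38% for Cyp1a2, 2.40% for Cyp1a1, 1.63% for Cyp3a16 and 0 for Cyp1b1 and Cyp3a13. Counts of Cyp3a41a are therefore uncertain, and the other members were counted over most of their length.

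**Figure D1:**
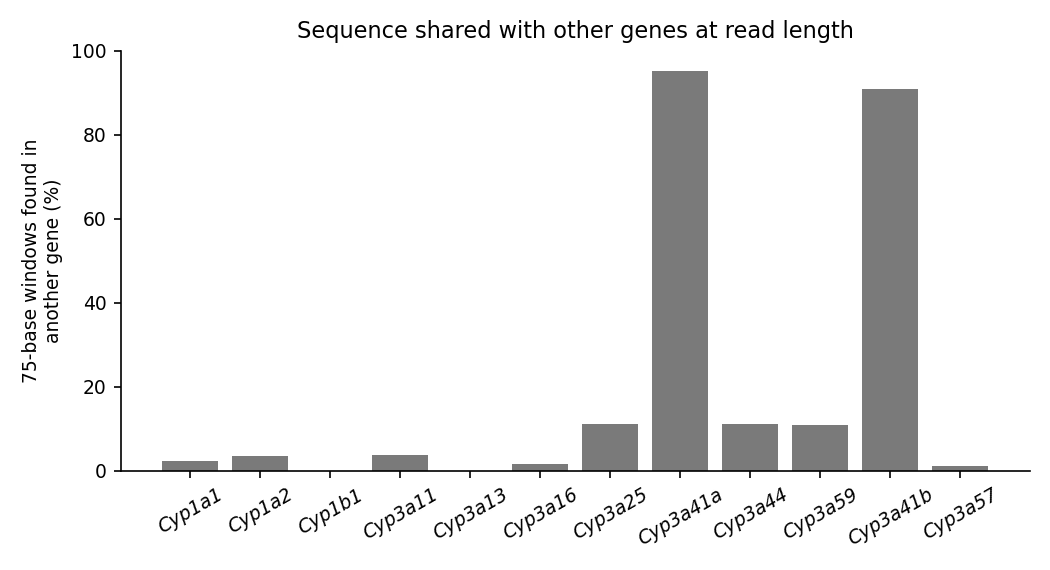
Share of all 75-base windows of each gene's coding transcript that also occur in a transcript of another gene (%, one bar per gene), for the 10 members and for Cyp3a41b and Cyp3a57. The bars of Cyp3a41a (95.3%) and Cyp3a41b (90.9%) stand far above the others, which lie at 11.2% or less.

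The genotype was seen in the counts of Fmo5 itself, which had 39808, 37405 and 30240 normalized counts in WT mice and 1071, 1102 and 1194 in Fmo5-/- mice. Normalized counts are raw counts scaled to a common library size by edgeR's TMM factors, and the libraries held between 44886286 and 52338675 counts on genes. The log2 fold change of Fmo5, Fmo5-/- over WT, was -4.996 ± 0.14 (SE; edgeR adjusted p = 2.79e-07). Over all genes tested, 229 of 16734 (1.37%) passed the threshold of an adjusted p under 0.05 in edgeR's quasi-likelihood test, 0.675% being higher and 0.693% lower in Fmo5-/- mice. Genotypes did not overlap, meaning that all 3 mice of one lay above all 3 of the other, in 27.4% of genes tested, with 13.9% higher and 13.5% lower in Fmo5-/- mice. With 3 mice a group the sensitivity was limited. In simulated libraries of this size edgeR found 22.4% of genes changed by 0.5 on the log2 scale and 64.2% of those changed by 1. The simulation gave every gene the spread between mice typical of its level, without the scatter of genes around it. These shares are taken over all levels, so they may not hold for these livers or for a single gene.

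Of the 10 Cyp1 and Cyp3a genes, 9 had enough counts to be tested. Cyp1a2 was higher in Fmo5-/- mice, and none of the other 8 passed edgeR's test (0 of these 8 had an unadjusted p under 0.05, beside 21.8% of all genes tested, and DESeq2 called none of them). The count of 1 in 9 called higher stands beside 0.675% of all genes tested. By DESeq2 the same gene was called higher, beside 4.75% of all genes higher and 8.96% in either direction. Of the 5 members with a mean of 500 or more normalized counts 1 was called, beside 1.61% of all such genes in either direction and 0.55% higher. The genotypes did not overlap for Cyp1a2, beside 13.9% of all genes tested that were higher without overlap, and overlapped for the other 8. The adjusted p of those 8 ranged from 0.380 to 0.943 and their log2 fold changes from -0.34 to 0.43.

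**Figure D2:**
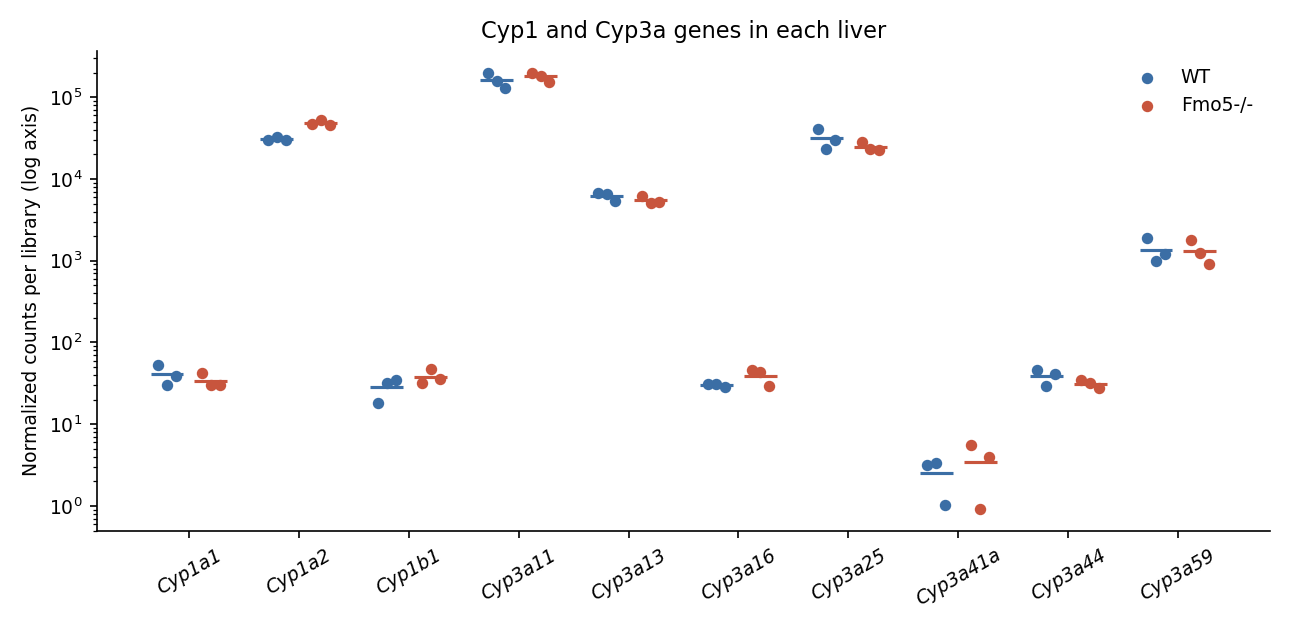
Normalized counts of the 10 genes in each liver, on a log axis; each point is 1 mouse (blue WT, red Fmo5-/-, 3 each) and each bar the mean of a group. Cyp1a2 is the one gene with enough counts to be tested whose groups do not overlap; 5 genes lie above 500 and 5 below 100.

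Levels were compared between genes as normalized counts per kilobase of the coding transcript. Cyp3a11 stood highest, with means of 68672 ± 15006 per kilobase in the WT group and 76764 ± 9631 in the Fmo5-/- group (SD over 3 mice each). Cyp1a2 followed with 15829 ± 795 in WT and 24882 ± 1911 in Fmo5-/- mice, and Cyp3a25 with 15697 ± 4553 and 12444 ± 1590. For Cyp3a11 the union of all annotated exons is longer than the coding transcript (5093 against 2344 bases). Over this union the means of Cyp3a11 were 31606 and 35330 and those of Cyp1a2 15255 and 23980, with the same order. In WT mice Cyp1a2 and Cyp3a25 overlapped, ranging from 15332 to 16746 and from 11621 to 20610 per kilobase, and could not be ordered. In Fmo5-/- mice they did not overlap, Cyp1a2 ranging from 23522 to 27068 and Cyp3a25 from 11433 to 14277.

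Below these came Cyp3a13, at 2102 ± 245 per kilobase in WT and 1851 ± 192 in Fmo5-/- mice, and Cyp3a59, at 685 ± 231 and 660 ± 217. The remaining members were all under 30 per kilobase in every mouse. Cyp3a44, Cyp3a16 and Cyp1a1 had WT means of 19.8, 17.5 and 15.1 per kilobase with overlapping mice, Cyp1b1 5.53 and Cyp3a41a 1.221. Divided instead by the windows that no other gene shares, Cyp3a41a had 26.8 per 1000 windows in WT mice beside 23.1 for Cyp3a44 and 18.5 for Cyp3a16, so its place among the low members depends on that choice, which was made after the windows had been counted. By the same measure Cyp3a25 had 18359 and Cyp1a2 17032 in WT mice, the reverse of the order per kilobase.

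Of the Cyp1 genes, Cyp1a2 and Cyp1a1 are neighbours on chromosome 9 that point away from each other, with 14.0 kb between their RefSeq start sites. Cyp1a2 lies at chr9:57676937-57683703 on the minus strand, and Cyp1a1 at chr9:57687928-57703824 on the plus strand. Their coding sequences were 76.6% identical. Cyp1b1 lies at chr17:79701537-79715061 on the minus strand, and was 53.4% identical to Cyp1a1 and 54.0% to Cyp1a2. The promoters of the neighbouring pair are shown because only Cyp1a2 passed the test between the genotypes. They are the 250 bases before and 50 after the RefSeq start site (GRCm38.p6), written 5′ to 3′ on the gene's strand, and capitals mark GCGTG, the core of the element bound by AHR with ARNT, and TATAAA.
Cyp1a1 (chr9:57697363-57697662, plus strand): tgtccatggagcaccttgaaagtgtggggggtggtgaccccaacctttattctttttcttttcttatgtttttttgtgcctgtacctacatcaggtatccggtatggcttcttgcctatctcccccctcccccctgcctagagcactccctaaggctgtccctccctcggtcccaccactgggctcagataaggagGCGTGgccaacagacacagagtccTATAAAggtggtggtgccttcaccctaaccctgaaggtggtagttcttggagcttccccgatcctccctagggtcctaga
Cyp1a2 (chr9:57683606-57683905, minus strand): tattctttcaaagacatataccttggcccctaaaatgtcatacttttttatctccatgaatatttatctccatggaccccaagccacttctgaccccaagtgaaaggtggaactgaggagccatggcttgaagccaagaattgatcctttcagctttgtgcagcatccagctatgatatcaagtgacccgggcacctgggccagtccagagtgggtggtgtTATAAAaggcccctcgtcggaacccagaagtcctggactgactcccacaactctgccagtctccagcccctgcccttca

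Each of these promoters holds TATAAA, starting 30 bases upstream of the start site in Cyp1a1 and 29 in Cyp1a2. GCGTG starts 54 bases upstream in Cyp1a1, and these letters are not in this window of Cyp1a2 on either strand. In Cyp1b1 GCGTG was found on the opposite strand, 76 bases upstream. Of 32851 mouse promoters of this length, 32.4% hold GCGTG and 13.6% hold TATAAA, on either strand. DNA outside these windows, including the rest of the 14.0 kb between the start sites, was not searched. The part of GCGTG in the difference between the genotypes was not tested.

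Cyp1a2, the main CYP1 enzyme of unexposed liver, rose in Fmo5-/- mice. It had 29744, 32486 and 29896 normalized counts in WT mice and 46672, 52512 and 45632 in Fmo5-/- mice. The lowest Fmo5-/- mouse was well above the highest WT mouse, and the spread within each group was small, at 5.02% of the mean in WT and 7.68% in Fmo5-/- mice. The fold change was 1.57 (95% interval 1.35 to 1.83), or 0.65 ± 0.10 on the log2 scale (SE; edgeR adjusted p = 0.0208), and DESeq2 gave an adjusted p of 7.46e-08. The edgeR call was lost without WT mouse 1 (log2 fold change 0.64, adjusted p = 0.0855) and without Fmo5-/- mouse 1 (0.67, adjusted p = 0.0778). In the same libraries the 7 markers of Kupffer cells, the resident macrophages of liver, summed to 8794 to 10513 normalized counts in WT and 13773 to 25395 in Fmo5-/- mice, and their part in the result for Cyp1a2 was not tested.

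Cyp1a1, the most inducible AHR target, had 53, 30 and 39 normalized counts in WT mice and 42, 30 and 30 in Fmo5-/- mice. The groups overlapped, with a log2 fold change of -0.25 (95% interval -0.89 to 0.39; edgeR adjusted p = 0.658). When 1 mouse was left out it ran from -0.42 (WT mouse 2 or Fmo5-/- mouse 1) to -0.0092 (WT mouse 1), and its sign turned when the reads of only one strand were counted (log2 fold change 0.10). Cyp1b1, which is expressed mostly outside hepatocytes, had 18, 32 and 35 in WT and 32, 48 and 35 in Fmo5-/- mice. These groups overlapped as well, with a log2 fold change of 0.43 (-0.27 to 1.13; edgeR adjusted p = 0.463). At these counts the intervals leave room for changes of the size seen for Cyp1a2 in Cyp1b1, and in Cyp1a1 for a fall of up to 0.89.

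The gap between the neighbours was taken within each mouse. There were 562, 1078 and 769 counts of Cyp1a2 per count of Cyp1a1 in WT mice and 1113, 1734 and 1499 in Fmo5-/- mice. The mean ratio was 1.80-fold higher in Fmo5-/- mice (1.57-fold to 2.18-fold without 1 mouse) and the groups did not overlap, but WT mouse 2 lay close to the lowest Fmo5-/- mouse, and with the reads of 1 strand the groups overlapped. The two-sided exact permutation p was 0.1, the smallest that 3 mice against 3 can give, and 0.14 after Benjamini-Hochberg adjustment over the 7 ratios and sums that were computed. These 7 quantities were chosen after the values of the genes had been seen.

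No other gene of the AHR pathway passed edgeR's test. Of its 10 genes 9 were tested, edgeR called 0 and DESeq2 called 1, and 2 had an unadjusted p under 0.05. For this and the lists that follow, the shares over all genes tested were 1.37% called by edgeR, 8.96% called by DESeq2 and 21.8% at an unadjusted p under 0.05, and 2 in 9 is close to the last. Their median log2 fold change was -0.11, beside 0.0058 for all genes tested. The receptor gene Ahr had 2130, 1737 and 1919 normalized counts in WT and 2433, 1714 and 1530 in Fmo5-/- mice, with a log2 fold change of -0.03 ± 0.17 (edgeR adjusted p = 0.943). Arnt had a log2 fold change of -0.10 ± 0.08 (adjusted p = 0.492). The groups overlapped for both genes.

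The 2 genes of this list with the smallest p were Ugt1a6b, a glucuronosyltransferase gene, and Gsta1, a glutathione transferase gene, both AHR targets. Ugt1a6b had 1293, 1163 and 1062 normalized counts in WT and 872, 606 and 773 in Fmo5-/- mice. All Fmo5-/- mice lay below all WT mice, with a log2 fold change of -0.64 ± 0.14, which edgeR did not call (adjusted p = 0.0554) and DESeq2 did (0.00129). Gsta1 had a log2 fold change of -1.09 ± 0.38 (edgeR adjusted p = 0.143), which was -0.65 without WT mouse 1 and -0.74 with the reads of 1 strand. The values of both genes are below 0. Ahrr, the AHR repressor gene and itself an AHR target, was named after its values had been seen: it had 11.6, 4.46 and 9.20 normalized counts in WT and 12.1, 12.9 and 12.8 in Fmo5-/- mice, without overlap (log2 fold change 0.56 ± 0.39, edgeR adjusted p = 0.441). Of the 9 tested genes, the genotypes thus did not overlap for 1 higher and 1 lower in Fmo5-/- mice, beside 13.9% and 13.5% of all genes tested.

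**Figure D3:**
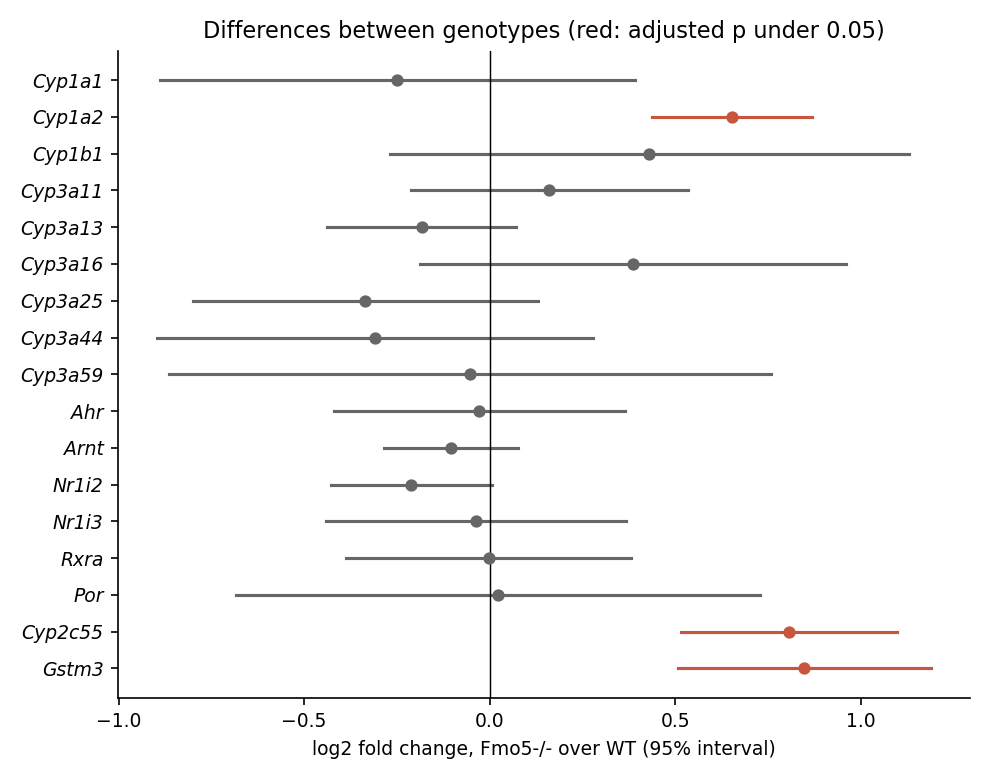
Log2 fold change, Fmo5-/- over WT, with its 95% interval for the 9 tested Cyp1 and Cyp3a genes, for their receptors, for Por and for the called PXR and CAR targets; red marks an edgeR adjusted p under 0.05. Cyp1a2, Cyp2c55 and Gstm3 lie to the right of 0 with intervals that exclude it, and the other intervals include 0.

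Among the Cyp3a genes, the most abundant was Cyp3a11, whose product carries out most CYP3A oxidations in adult mouse liver. It had 198349, 156030 and 128522 normalized counts in WT mice and 200381, 183714 and 155710 in Fmo5-/- mice. The groups overlapped, and WT mouse 1 was nearly as high as the highest Fmo5-/- mouse. The fold change was 1.12 (95% interval 0.863 to 1.45), with a log2 value of 0.16 ± 0.16 (edgeR adjusted p = 0.617). When 1 mouse was left out the log2 value ran from 0.025 (WT mouse 3) to 0.34 (WT mouse 1). The interval holds neither a doubling nor a halving, and it overlaps that of Cyp1a2.

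Cyp3a25, a gene of adult liver in the same cluster, had 41220, 23243 and 29718 normalized counts in WT and 28553, 23242 and 22866 in Fmo5-/- mice. WT mouse 1 was the highest of all, and WT mouse 2 was level with the middle Fmo5-/- mouse. The log2 fold change was -0.34 ± 0.20 (95% interval -0.80 to 0.13; edgeR adjusted p = 0.380). When 1 mouse was left out it ran from -0.51 (WT mouse 2) to -0.08 (WT mouse 1), and with no filter on low counts edgeR called it (-0.35, adjusted p = 0.0283).

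Cyp3a59, the nearest relative of Cyp3a25, had 1874, 989 and 1225 normalized counts in WT and 1775, 1245 and 919 in Fmo5-/- mice. In each genotype 1 mouse stood high, and the ranges nearly coincided. The log2 fold change was -0.05 (95% interval -0.86 to 0.76; edgeR adjusted p = 0.943), and it ran from -0.33 (without Fmo5-/- mouse 1) to 0.25 (without WT mouse 1) when 1 mouse was left out. Cyp3a13, the member that lies outside the cluster and is also known from intestine, had 6676, 6588 and 5379 in WT and 6123, 5082 and 5209 in Fmo5-/- mice. Its log2 fold change was -0.18 (-0.44 to 0.07; edgeR adjusted p = 0.384), with overlap.

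The promoters of Cyp3a25 and Cyp3a59 are shown because the genes differed in level despite similar sequence. Capitals in the lower sequence mark where it departs from the upper one, base for base with no gaps.
Cyp3a25 (chr5:146009568-146009867, minus strand): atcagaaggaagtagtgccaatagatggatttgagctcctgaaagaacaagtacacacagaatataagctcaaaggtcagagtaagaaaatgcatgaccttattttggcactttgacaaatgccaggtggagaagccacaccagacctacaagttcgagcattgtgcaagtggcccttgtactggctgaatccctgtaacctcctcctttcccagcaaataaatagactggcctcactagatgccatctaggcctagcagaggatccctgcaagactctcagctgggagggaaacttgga
Cyp3a59 (chr5:146079008-146079307, plus strand): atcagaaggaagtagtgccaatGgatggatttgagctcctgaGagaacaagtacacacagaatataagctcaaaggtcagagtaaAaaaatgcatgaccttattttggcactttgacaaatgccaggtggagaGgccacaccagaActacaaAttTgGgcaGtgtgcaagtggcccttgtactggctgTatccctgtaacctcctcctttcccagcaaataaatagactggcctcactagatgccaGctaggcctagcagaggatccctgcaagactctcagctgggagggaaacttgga

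These promoters had 289 of 300 bases in common (96.3%). Both held AGGTCA, the half-site to which PXR, CAR and RXRA bind, starting 177 bases upstream and again on the opposite strand 156 bases upstream, and 16.3% of all mouse promoters of this length hold it on either strand. It was also found 162 bases upstream in Cyp3a11 and 150 bases upstream in Cyp3a44, whose counts were low. AGTTCA, which was searched as well, was found on the opposite strand 142 bases upstream in Cyp3a11 and 130 in Cyp3a41a. Of all mouse promoters of this length, 14.0% hold AGTTCA on either strand. Per kilobase, there was 21.9, 23.4 and 24.1 times as much Cyp3a25 as Cyp3a59 in WT mice and 16.0, 18.6 and 24.8 times as much in Fmo5-/- mice. The gap was present in all 6 mice, and the genotypes overlapped (two-sided exact permutation p = 0.4), though not without Fmo5-/- mouse 3.

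The genes known from fetal or female liver were at the lower end in these males. Cyp3a16 had 31, 31 and 29 normalized counts in WT and 46, 43 and 29 in Fmo5-/- mice, with a log2 fold change of 0.39 (95% interval -0.19 to 0.96; edgeR adjusted p = 0.418). Cyp3a44 had 47, 29 and 41 in WT and 34, 32 and 27 in Fmo5-/- mice, with a log2 fold change of -0.31 (-0.90 to 0.28; adjusted p = 0.536). The genotypes overlapped for both. Cyp3a41a had 3, 3 and 1 raw counts in WT and 6, 1 and 4 in Fmo5-/- mice and was too low to be tested.

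Outside the 10 genes, the files list Cyp3a41b and Cyp3a57, neither of which could be tested. Cyp3a41b had 0 raw counts in each WT mouse and 1 in each Fmo5-/- mouse, within the 3 counts that a count of 0 allows. Cyp3a57 had 15, 7 and 14 in WT and 4, 7 and 9 in Fmo5-/- mice. No fold is given for these low counts.

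Summed over the 7 Cyp3a members there were 248201, 186913 and 164915 normalized counts in WT and 236918, 213359 and 184765 in Fmo5-/- mice. The ranges overlapped (two-sided exact permutation p = 0.8), but not when the counts were normalized without WT mouse 1, where the ratio of the means, Fmo5-/- over WT, was 1.21 against 1.06 with all mice. Of this sum, Cyp3a11 held 79.9%, 83.5% and 77.9% of it in WT and 84.6%, 86.1% and 84.3% in Fmo5-/- mice. Cyp3a25 held 16.6%, 12.44% and 18.02% in WT and 12.1%, 10.9% and 12.38% in Fmo5-/- mice. Neither share overlapped between the genotypes, by narrow margins set by WT mouse 2, and the share of Cyp3a25 overlapped with the reads of 1 strand.

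Within a mouse there were 4.81, 6.71 and 4.32 counts of Cyp3a11 per count of Cyp3a25 in WT and 7.02, 7.90 and 6.81 in Fmo5-/- mice. The mean ratio was 1.37-fold higher in Fmo5-/- mice, without overlap, and when 1 mouse was left out it ran from 1.26-fold (WT mouse 3) to 1.59-fold (WT mouse 2). Set against Cyp3a11, there were 14.996, 20.8 and 23.26 counts of Cyp1a2 per 100 in WT and 23.29, 28.6 and 29.3 in Fmo5-/- mice, and the closest mice of the 2 groups nearly met. Without 1 mouse the ratio of these means ran from 1.23 to 1.51. For these ratios and shares the two-sided exact permutation p was 0.1, the smallest possible, and 0.14 adjusted over the 7 quantities. The shares and the ratio of Cyp3a11 to Cyp3a25 rest largely on the counts of the same genes and are not separate results.

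**Figure D4:**
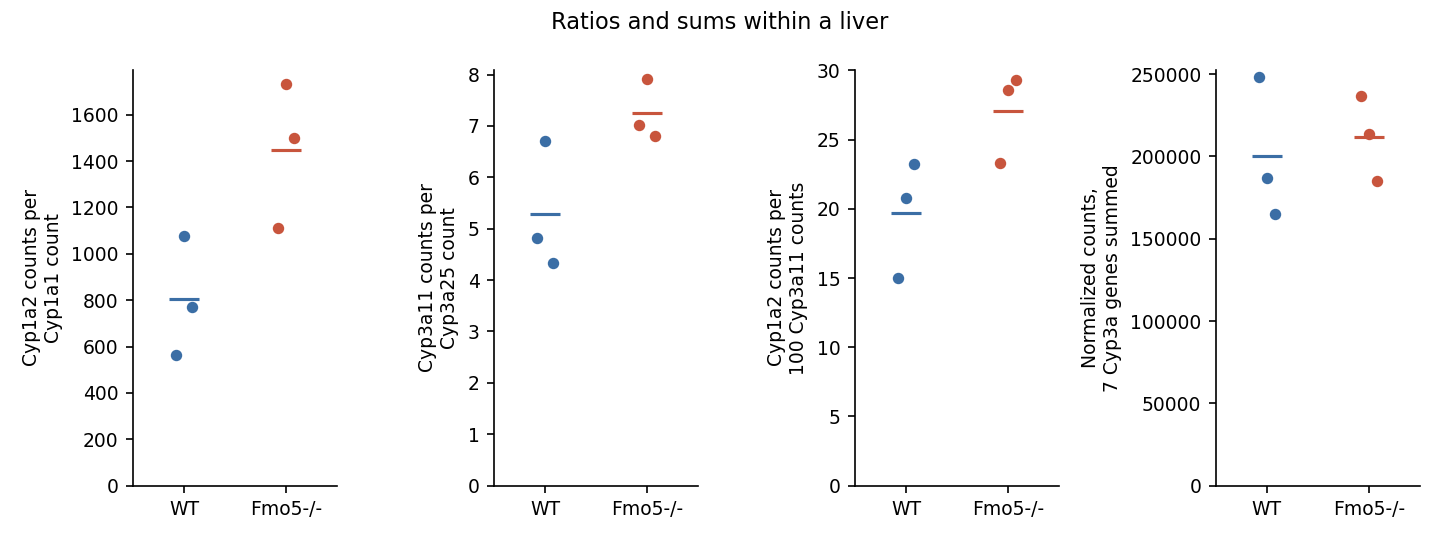
Ratios and a sum in each liver (points, 3 mice a group; bars, means): counts of Cyp1a2 per count of Cyp1a1, counts of Cyp3a11 per count of Cyp3a25, counts of Cyp1a2 per 100 of Cyp3a11, and normalized counts summed over the 7 Cyp3a members. The groups do not overlap for the ratios and overlap for the sum, which lies between 164915 and 248201.

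None of the receptors that act on the Cyp3a genes passed edgeR's test. Nr1i2, which encodes PXR, had 5071, 4567 and 4383 normalized counts in WT and 3766, 4463 and 3881 in Fmo5-/- mice. Its log2 fold change was -0.21 ± 0.10 (95% interval -0.43 to 0.0049; adjusted p = 0.240), and 1 Fmo5-/- mouse lay within the WT range. Nr1i3 had a log2 fold change of -0.04 ± 0.17 (adjusted p = 0.923) and Rxra one of -0.0027 ± 0.17 (adjusted p = 0.994). The signs of Ahr, Nr1i3 and Rxra turned under other processing or without single mice, so no direction is given for them.

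Of 27 genes of the PXR and CAR pathway, 25 were tested and edgeR called 2 higher and 0 lower. DESeq2 called 4, and 5 had an unadjusted p under 0.05, a share no higher than the 21.8% of all genes tested. Their median log2 fold change was 0.056. Cyp2c55, a PXR- and CAR-responsive P450 gene, had 479, 519 and 435 normalized counts in WT and 948, 860 and 695 in Fmo5-/- mice, and rose 1.75-fold (log2 0.81 ± 0.13, edgeR adjusted p = 0.0275). Gstm3, a glutathione transferase gene, had 2161, 1552 and 1851 in WT and 3314, 3899 and 2804 in Fmo5-/- mice, and rose 1.80-fold (log2 0.85 ± 0.15, adjusted p = 0.0430). For both, all Fmo5-/- mice lay above all WT mice. Of the 25 tested genes, 3 were higher and 2 lower in Fmo5-/- mice without overlap, beside 13.9% and 13.5% of all genes tested. The call of Cyp2c55 was lost without WT mouse 1 or 3 or Fmo5-/- mouse 1 or 2 (adjusted p 0.0562 to 0.101), and that of Gstm3 without WT mouse 2 or 3 or Fmo5-/- mouse 1 or 2 (0.0771 to 0.130) and when only genes with a mean of 500 or more were fitted (log2 fold change 0.91, adjusted p = 0.0615).

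Genes for electron supply and haem, on which every P450 depends, gave no call in edgeR: 0 of 16, with 5 at an unadjusted p under 0.05 and 1 called by DESeq2. Without overlap, 1 of the 16 was higher and 4 were lower in Fmo5-/- mice, beside 13.9% and 13.5% of all genes tested. Por, the P450 oxidoreductase gene, had a log2 fold change of 0.02 ± 0.29 (adjusted p = 0.974). The smallest p-values were those of Pgrmc1, which encodes a haem-binding partner of P450s (-0.36 ± 0.12, edgeR adjusted p = 0.122), and Fech, for the last step of haem synthesis (-0.28 ± 0.10, adjusted p = 0.146). The gene called by DESeq2 was Pgrmc1 (DESeq2 adjusted p = 0.0347). Alas1, the rate-limiting step of haem synthesis, was singled out after its values had been seen: it had 2462, 28775 and 3771 normalized counts in WT and 4166, 7283 and 10424 in Fmo5-/- mice. WT mouse 2 stood far above all others, and the groups overlapped.

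Liver-enriched transcription factors that act on many P450 genes were also compared, and edgeR called 0 of 16 (2 at an unadjusted p under 0.05, none by DESeq2; median log2 fold change -0.12). The smallest p-values were those of Hlf, a PAR bZIP factor (-0.34 ± 0.12, edgeR adjusted p = 0.152), and Nr1h4, which encodes the bile acid receptor FXR (-0.27 ± 0.11, adjusted p = 0.187). Of 13 genes known to be higher in female liver, 7 were tested and 0 called by edgeR (3 at an unadjusted p under 0.05, none by DESeq2; median -0.45). Cyp2c40 had a log2 fold change of -0.63 ± 0.20 (adjusted p = 0.125) and Cyp2c69 one of -0.92 ± 0.31 (0.133). Without WT mouse 3 the value of Cyp2c69 was -0.54. Of 15 male-biased genes, all were tested and 0 called by edgeR (4 at an unadjusted p under 0.05, 3 by DESeq2; median -0.19). Selenbp2 had 3818, 26125 and 23009 normalized counts in WT and 177, 202 and 453 in Fmo5-/- mice, with a log2 fold change of -6.00 ± 1.03 (adjusted p = 0.0736, and 0.0384 to 0.245 without 1 mouse, the lowest without WT mouse 1). WT mouse 1 stood far below the other WT mice in this gene, and likewise, as seen after the values were known, in Moxd1 (2.12 against 567 and 573) and Ugt2b38 (238 against 996 and 660). Mup20 had a log2 fold change of -0.98 ± 0.29 (0.122).

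Cyp1a2 is a gene of perivenous hepatocytes, so other genes of that zone were set beside it. Of 13 perivenous genes 11 had a log2 fold change above 0, beside 8500 of all 16734 genes tested, and the median was 0.25. EdgeR and DESeq2 called 0 of them, and 2 had an unadjusted p under 0.05, a lower share than the 21.8% of all genes tested. The genotypes did not overlap for 1 of them, beside 13.9% of all genes tested that were higher without overlap. This was Axin2, a Wnt target (0.41 ± 0.13, edgeR adjusted p = 0.126). The next was Gulo, of ascorbate synthesis (0.30 ± 0.12, adjusted p = 0.173). Of 11 periportal genes edgeR called 0 (3 at an unadjusted p under 0.05, 3 by DESeq2; median -0.050). Cyp2f2, the P450 gene of periportal hepatocytes, had 42015, 46836 and 45992 normalized counts in WT and 33125, 27370 and 35617 in Fmo5-/- mice (-0.49 ± 0.11, adjusted p = 0.0687, and 0.0449 without Fmo5-/- mouse 3), and Etnppl had a log2 fold change of -0.80 ± 0.20 (0.0822).

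Markers of other liver cell types were compared in the same way. The 7 Kupffer cell markers all had higher means in Fmo5-/- mice, 6 of them without overlap, beside 13.9% of all genes tested. EdgeR called 1 of them, Clec4f (log2 0.70 ± 0.11, adjusted p = 0.0275), all 7 had an unadjusted p under 0.05 and DESeq2 called 6. The call of Clec4f was lost without WT mouse 1 or 2 or Fmo5-/- mouse 1 or 2 (adjusted p 0.05004 to 0.102), and all 7 were called without Fmo5-/- mouse 3.

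Of 6 leukocyte markers all had higher means in Fmo5-/- mice, 5 without overlap, beside 13.9% of all genes tested. EdgeR called 0 of the 6 (4 at an unadjusted p under 0.05, 3 by DESeq2). They summed to 633 to 880 normalized counts in WT and 931 to 1872 in Fmo5-/- mice. Ptprc, the common leukocyte antigen, had a log2 fold change of 0.98 ± 0.27 (edgeR adjusted p = 0.111, and 0.00746 without Fmo5-/- mouse 3), and Cd3e of T cells one of 1.43 ± 0.45 (0.120). The log2 fold change of Cd3e was 0.73 without Fmo5-/- mouse 2 (adjusted p = 0.267) and 1.72 without Fmo5-/- mouse 3 (0.0476). No marker of either list was at 0 in all mice. The part of leukocytes in the results was not tested.

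Of the 4 hepatocyte markers, 6 endothelial, 8 stellate and 5 cholangiocyte markers edgeR and DESeq2 called 0 (0, 1, 1 and 0 at an unadjusted p under 0.05). The 4 hepatocyte markers summed to 4830690 to 6425790 normalized counts in WT and 5002020 to 6256570 in Fmo5-/- mice, and Alb, the albumin gene, had 4085760 to 5404120 over all 6 mice. The median log2 fold change of the 4 was -0.084, and the smallest p-values were those of Serpina1c (-0.15 ± 0.10, edgeR adjusted p = 0.418) and Apoa1 (0.17 ± 0.16, 0.580). Stab2 of sinusoidal endothelium had a log2 fold change of 0.23 ± 0.08 (0.155) and Cdh5 one of 0.26 ± 0.17 (0.402). For stellate cells Des had 0.34 ± 0.14 (0.196) and Reln 0.15 ± 0.09 (0.359), and for cholangiocytes Sox9 had -0.31 ± 0.21 (0.419) and Krt7 -0.15 ± 0.29 (0.814). A log2 fold change above 0 was seen in 4 of 6 endothelial, 7 of 8 stellate and 3 of 5 cholangiocyte markers. Over all genes tested it was 8500 of 16734. The medians of these lists were 0.21, 0.22 and 0.031. When 1 mouse was left out Sox9 ran from -0.46 (WT mouse 2) to -0.018 (WT mouse 3).

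**Figure D5:**
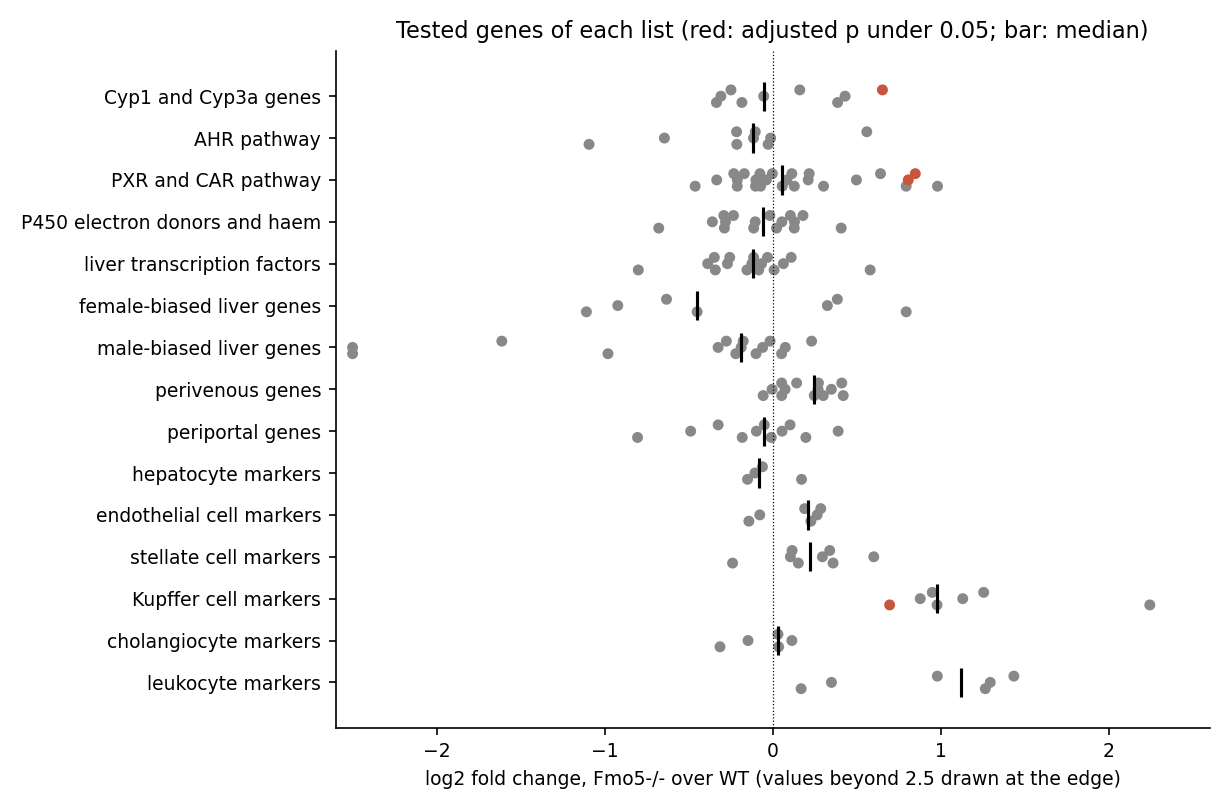
Log2 fold change, Fmo5-/- over WT, of every tested gene (points) of each gene list, with the list's median (bar); red marks an edgeR adjusted p under 0.05. The red points are Cyp1a2, Cyp2c55, Gstm3 and Clec4f, and the Kupffer cell and leukocyte markers lie to the right of 0; Selenbp2 and Moxd1 are drawn at the left edge.

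For Cyp1a2 and Cyp3a11 the genes with the most similar profile over the 6 mice were found among 7818 other genes with a mean of 500 or more, by the root mean square difference of log2 CPM (library-size-scaled counts) after each gene was centred on its own mean. Nearest to Cyp1a2 were Nup210, a nuclear pore gene (0.069), Rhbdf2 (0.081) and Hpx, which encodes the haem-binding plasma protein hemopexin (0.087). These genes, and those near to Cyp3a11, were picked for their likeness over the same mice, so their fold changes and p-values follow from that choice and are given as a description. Their log2 fold changes were 0.54 for Nup210, 0.54 for Rhbdf2 and 0.51 for Hpx, edgeR calling the first 2 (adjusted p = 0.0339 and 0.0372) and not Hpx (0.0662). Near to Cyp3a11 were Ctsc, a cathepsin gene (0.083), and Cyp2c29, another P450 gene (0.091). Neither was called by edgeR (log2 fold changes 0.20 and 0.21; adjusted p = 0.455 and 0.464).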

How the data were processed

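RNA-seq reads (single, 75 bases) of 6 livers, 3 WT and 3 Fmo5-/-, were mapped by the authors to mm10 with STAR 2.6.0c and counted per gene by STAR, and these raw counts were deposited for each library. The annotation release is not given in the sources used here. The Ensembl version of Cyp1b1 differed between the counts and GENCODE vM21. Its length, level per kilobase and window share may therefore rest on another gene model. The deposited comparison table holds signal columns, which are the counts of each library divided by 1 DESeq2 (1.22.2) size factor by the authors. It also holds the mean, log2 fold change, its error, statistic and p-values of the authors, which were not used. The deposited files also give counts for each strand alone. Strand 1 held 49.9% to 50.1% of these, and the tests used the counts over both strands.

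Of 67753857 to 75632821 reads per library, 66.2% to 69.2% were counts on genes. Reads with several places (10.4% to 13.1%), with no gene, with more than 1 gene or unmapped were left out of library sizes and tests. Intervals of fold changes come from the edgeR fit and include the spread between mice. The limit of 3 counts for a count of 0 covers counting error only. Each library has its own animal by the study's methods, and p-values measure the spread between these 3 mice a group.

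Genes passing filterByExpr (minimum count 10) were scaled by TMM and tested with the robust quasi-likelihood test of edgeR 4.0.16 (limma 3.58.1, R 4.3.3) on all 6 libraries, with Benjamini-Hochberg adjustment over 16734 genes and a threshold of 0.05. Normalized counts are counts over the effective library size, times the mean of these sizes. Levels were divided by the length of the coding transcript. Calls, fold changes, levels, ratios and sums were also computed with DESeq2 1.42.0, RLE factors, scaling without the 20 most abundant genes, no filter except 1 count, a mean of 500 or more before the fit, reads of 1 strand, and without each library in turn. Members with a mean under 500 have no value in the fit limited to 500 or more, and the search for similar profiles was not repeated. Tested on data simulated for 16734 genes, edgeR recovered 22.4%, 64.2% and 95.5% of genes with a simulated log2 difference of 0.5, 1 and 2, with 1 false call among 122. These data were more even than real ones, because each gene had exactly the spread typical of its level. Shared windows, coding identity (Biopython 1.88) and positions come from GENCODE vM21, on the build of mm10, and promoters from RefSeq (GRCm38.p6), which held all 10 genes. Ratios were compared by two-sided exact permutation tests (SciPy 1.17.1).

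The genes and lists were chosen with earlier results of these data known. Named were the 10 genes, the other Cyp3a genes listed, Fmo5, the receptors, Por, every called gene of a list or otherwise its 2 genes with the smallest p, and the 3 genes nearest to Cyp1a2 and to Cyp3a11 in profile, of which 1 is not reported here.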

Additional observations from a re-analysis of the deposited data

How the results depend on the processing

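Cyp1a2 was higher in Fmo5-/- mice under every alternative run, with log2 fold changes of 0.59 to 0.72, and was called by all but the fits without WT mouse 1 or Fmo5-/- mouse 1. Among the Cyp1 and Cyp3a genes there was 1 call, 2 if low counts were not filtered (Cyp1a2 and Cyp3a25), and 0 to 1 when 1 mouse was left out. Over all genes 229 were called, against 1395 by DESeq2, 1989 with no filter, 53 if only genes with a mean of 500 or more were fitted, and 31 to 763 without 1 mouse. Of genes with a mean of 500 or more 126 were called, against 744, 981 and 53, and 14 to 259 without 1 mouse. Of the other listed genes 3 were called, against 21 by DESeq2 and 29 with no filter, and 0 to 13 without 1 mouse. Some log2 fold changes near 0 changed sign. That of Cyp1a1 was 0.099 with 1 strand. That of Cyp3a59 was 0.0086 in the fit of genes with a mean of 500 or more, and it ran from -0.33 to 0.25 without 1 mouse. In that fit those of Ahr, Nr1i3 and Rxra were 0.034, 0.028 and 0.064. Those of Nr1i3 and Rxra were 0.060 and 0.011 with 1 strand, and that of Rxra was 0.0038 with scaling without the most abundant genes. Without 1 mouse, Ahr ran from -0.25 to 0.10, Nr1i3 from -0.15 to 0.21, Rxra from -0.14 to 0.23, Por from -0.19 to 0.38 and Krt7 from -0.43 to 0.075. Without 1 mouse, Cyp1b1 ran from 0.19 to 0.61, Cyp3a13 from -0.27 to -0.12, Cyp3a16 from 0.27 to 0.55 and Cyp3a44 from -0.48 to -0.15. The ratio of the summed Cyp3a counts, Fmo5-/- over WT, was 1.06 and ran from 0.975 to 1.21 without 1 mouse. The cause of these differences was not tested. Levels per kilobase of 1 strand are lower because that count holds only part of the reads.

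No paired analysis was possible because the labels give the mice no replicate numbers that are shared between genotypes; the mice were numbered in the order of deposit. With 3 mice a group, the exact test of a ratio cannot pass 0.05. Members under 100 counts had wide intervals, and Cyp3a41a could not be tested at this depth.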
